A study of Homo sapiens with 4 samples.

Results

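The tubulin genes described here are TUBA1A, TUBA1B, TUBA1C and TUBA4A (alpha-tubulin), TUBB, TUBB3 and TUBB6 (beta-tubulin), TUBG1 (gamma-tubulin), TUBD1 (delta-tubulin) and TUBE1 (epsilon-tubulin). They were chosen by symbol, and all 10 were found among the 23228 genes counted. The cells were ovarian cancer stem cells (OCSCs) of the SKOV3 line, as labelled. They were sorted for high aldehyde dehydrogenase activity with the ALDEFLUOR reagent (ALDH+) and grown as spheroids. LY500307 is a selective agonist of estrogen receptor beta (ERβ, ESR2). A vehicle group of 2 samples was compared with a group of 2 samples given LY500307 at 5 µM, and both groups were taken at 24 h. Both groups came from 1 cell line and 1 sort gate, and no other allele or agent was named for either. No source stated that the samples were separate cultures, so p-values measured only the spread between these samples, which may be technical.

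Tubulin is the building block of microtubules. An alpha and a beta subunit join into a dimer with the help of chaperones, and the dimers add end to end into hollow filaments that form the mitotic spindle and the tracks of intracellular transport. Gamma-tubulin sits in ring complexes that start new filaments, and delta- and epsilon-tubulin belong to the centriole. Each class can be made from several genes, called isotypes, which differ most in the tail at the end of the protein. Class III beta-tubulin, the product of TUBB3, is abundant in neurons and has been studied in ovarian cancer in relation to taxanes, drugs that bind beta-tubulin.

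Between 28841701 and 34943882 reads were assigned to genes in each library. The LY500307 pair was less alike than the vehicle pair: counts differed between replicates with a chi-square per degree of freedom of 44.9 for LY500307 and 5.27 for vehicle. The labelled cell type was checked against general markers of ovarian epithelium. PAX8, a transcription factor of the Müllerian epithelium and its tumours, had 0 reads in all 4 libraries. WT1 had 0 to 2 reads, KRT7 0 to 1, KRT19 0 to 2, MUC16 (CA125) 1 to 6 and KRT8 9 to 33, whereas EPCAM lay at 194 to 240 CPM (counts per 1000000 reads assigned to genes, after scaling between libraries) and KRT18 at 23.5 to 31.8 CPM. SKOV3 is known for a deletion of CDKN2A and an amplification of ERBB2. CDKN2A was read at 25.8 to 31.9 CPM and ERBB2 at 48.7 to 59.4 CPM, both looked up after other values had been seen. Most of the ovarian epithelial markers were therefore near 0, and the CDKN2A and ERBB2 values went against the labelled line. Of 4 fibroblast markers, COL1A1 was at 182 to 230 CPM, COL1A2 at 254 to 395, LUM at 15.1 to 17.3 and DCN at 7.58 to 9.61. VIM was at 1110 to 1300 CPM. The leukocyte and endothelial markers looked up did not exceed 22 reads in any library. What these values mean for the label was not tested. Which of the epithelial markers SKOV3 itself should hold was not checked here. The cells are called OCSCs below only as the labels do. ESR2 itself had 7 to 12 reads a library.

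Tubulin isotypes resemble each other closely, and short reads could not always be told apart. The first 60 coding bases of TUBB and TUBB3 are shown because they hold codons 2 to 4 (in capitals), which encode the opening residues that the cofactor TTC5 reads on new tubulin chains when cells destroy tubulin mRNA in response to free tubulin. Sequences were read from GRCh37 (hg19) with GENCODE exons. TUBA1A lies at chr12:49578469-49582863 (minus strand), TUBA1B at chr12:49521565-49525180 (minus strand), TUBA1C at chr12:49582519-49668383 (plus strand), TUBA4A at chr2:220114432-220142624 (minus strand) and TUBB at chr6:30685212-30693315 (plus strand). All printed bases are exonic and coding.
TUBB: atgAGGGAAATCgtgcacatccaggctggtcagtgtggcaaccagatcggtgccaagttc
TUBB3: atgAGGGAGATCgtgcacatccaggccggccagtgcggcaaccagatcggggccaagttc
TUBB3 differed from TUBB at 5 of these 60 bases, and TUBB6 at 8.

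The last 60 coding bases before the stop encode, in the beta isotypes, the acidic tail, the most variable region between isotypes and the place where enzymes add glutamate chains. TUBG1 is shown for contrast. The glutamate codons GAA and GAG are in capitals. TUBB3 lies at chr16:89987800-90005169, TUBB6 at chr18:12307668-12344319 and TUBG1 at chr17:40761659-40767256, all on the plus strand.
TUBB: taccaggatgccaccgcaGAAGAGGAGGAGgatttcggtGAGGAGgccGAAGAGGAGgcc
TUBB3: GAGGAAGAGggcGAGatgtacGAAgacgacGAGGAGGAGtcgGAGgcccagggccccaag
TUBB6: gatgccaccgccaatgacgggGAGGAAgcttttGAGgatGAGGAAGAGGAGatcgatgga
TUBG1: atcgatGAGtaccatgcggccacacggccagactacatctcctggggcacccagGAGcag
TUBB and TUBB3 each had 9 such codons of 20 and TUBB6 had 7. TUBG1 and TUBD1 had 2 each and TUBE1 had 0.

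Over the whole coding sequence TUBA1A and TUBA1B were 97.2% identical, and their longest run without a difference was 221 bases. TUBA1B and TUBA1C shared 96.8% with a run of 326 bases, and TUBA1A and TUBA1C 95.9%. TUBA4A stood at 84.4 to 85.7% identity with these 3 genes. Among the beta isotypes TUBB shared 81.8% with TUBB3 and 81.0% with TUBB6, while TUBB3 and TUBB6 shared 87.6%. Across classes the identity was 57.3% between TUBA1B and TUBB, 55.3% between TUBB and TUBG1, 50.9% between TUBB and TUBD1 and 51.6% between TUBB and TUBE1. The reads were 50 bases long, and a read that fits several places was left out of the gene counts. The tally of such alignments was 32.3 to 33.4% of all tallied entries. Whether it counted each read only once was not stated in the sources used here. Of the 50-base stretches of each transcript, 62.7% were also found elsewhere for TUBA1B, 48.1% for TUBA1A, 30% for TUBG1, 26.6% for TUBA1C and 23.4% for TUBB. The share was 9.23% for TUBB3, 5.69% for TUBD1, 1.09% for TUBB6 and 0 for TUBA4A and TUBE1. The gene sharing the most stretches was TUBA1B for TUBA1A and TUBA1C, TUBA1A for TUBA1B, TUBG2 for TUBG1 and the pseudogene TUBBP1 for TUBB. The counts of TUBA1A, TUBA1B, TUBA1C, TUBB and TUBG1 therefore miss part of their reads. Whether other reads of these genes were assigned to a near copy was not tested. TUBG1 shared 94.7% of its coding bases with TUBG2. A strand setting for counting was not given in the sources used here, and exons of TUBA4A and STK16 (628 bases), TUBB6 and AFG3L2 (837 bases) and TUBA1A and TUBA1C (345 bases) overlap on opposite strands.

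**Figure D1:**
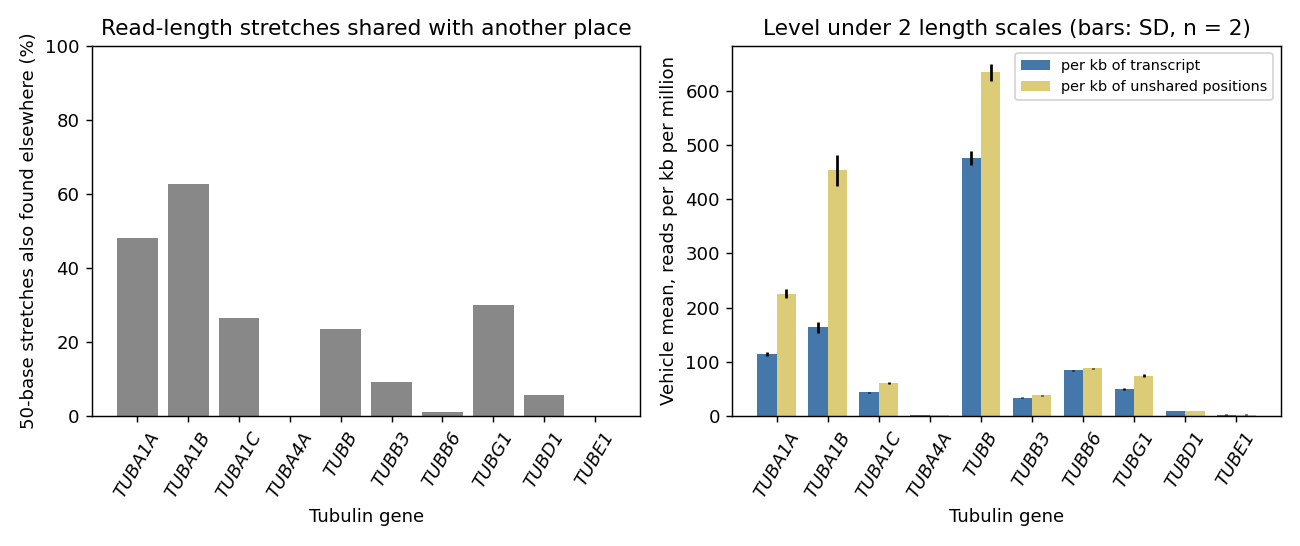
Left, the percentage of the 50-base stretches of each tubulin transcript that also occur elsewhere in the genome or transcripts; right, the mean vehicle level in reads scaled for length in kilobases and library size (bars, SD of n = 2), per kilobase of transcript and per kilobase of unshared positions. Of the 10 genes TUBA1B has the highest shared percentage (62.7%) and TUBB the highest level on both scales.

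TUBB was the most abundant of the tubulin genes, at 468 to 485 RPKM, reads scaled for transcript length in kilobases and for library size, over the 4 samples. TUBA1B followed at 154 to 207 RPKM, then TUBA1A at 90.9 to 117 and TUBB6 at 84.1 to 94.0, and these last ranges overlapped. TUBG1 (39.3 to 53.5 RPKM) and TUBA1C (42.5 to 53.9) overlapped as well. TUBB3 lay below them at 33.2 to 38.2 RPKM. The centriolar genes TUBD1 (8.33 to 9.28 RPKM) and TUBE1 (2.25 to 3.15) were lower, and TUBA4A was the lowest member at 1.57 to 1.99 RPKM. Apart from the overlapping pairs, no neighbouring ranges in this order touched. When reads were divided by the number of unshared 50-base positions in place of transcript length, a scaling chosen after the data had been seen, the order of the vehicle means was the same. The vehicle mean then moved from 164 ± 10.1 to 453 ± 27.8 (SD, n = 2) for TUBA1B and from 114 ± 3.75 to 226 ± 7.43 for TUBA1A. The distance between TUBB and TUBA1B thus depended on this choice.

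Of the 13 other tubulin genes counted, TUBB4B was the most abundant at 248 to 293 RPKM, between TUBB and TUBA1B. Per unshared position TUBA1B came before it, with vehicle means of 453 ± 27.8 for TUBA1B and 314 ± 1.24 for TUBB4B. TUBG2 (11.7 to 17.0 RPKM) and TUBB4A (8.64 to 14.8) were next. TUBB2B, TUBB2A, TUBB8 and TUBA8 did not exceed 3.30 RPKM in any sample. TUBA3C, TUBAL3 and the platelet isotype TUBB1 had 0 reads in all 4 libraries. TUBB3 is also a neuronal marker, so 7 other neuronal markers were looked up. RBFOX3 had 0 to 2 reads, SNAP25 0 to 14, STMN2 1 to 4 and NEFM 2 to 7. SYP had 448 to 673 reads, MAP2 371 to 499 and NEFL 153 to 291, and TUBB3 had 1611 to 2117 reads a library. The neuronal markers were thus partly near 0 and partly expressed.

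LY500307 did not change any of the 10 tubulin genes by the study criteria, an unadjusted p below 0.05 with a log2 fold change beyond 0.5 in size. All 10 passed the filter on low counts, and 0 met the criteria, against 669 of the 14473 genes tested (4.62%; 400 or 2.76% higher and 269 or 1.86% lower in LY500307). None of the 10 had an unadjusted p below 0.05, while 11.6% of all genes tested did. The smallest adjusted p among the 10 was 0.587 (edgeR quasi-likelihood, Benjamini-Hochberg over all genes tested). In that test 0 of all genes had an adjusted p below 0.05 (smallest 0.422), although 1678 had an unadjusted p below 0.05. By DESeq2 4.01% of all genes tested and 0 of the 10 met the study criteria, and 20 of the 11386 genes to which it gave an adjusted p (0.176%) had one below 0.05, none of them a tubulin gene. The log2 fold changes of the 10 lay between -0.24 and 0.16 with standard errors (SE) of 0.10 to 0.23. Their median size was 0.12, beside 0.18 for all genes tested. The CPM ranges of the groups did not overlap for 2 of the 10 (20%), compared with 48.6% of all genes tested.

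Among the alpha isotypes, TUBA1A, an isotype prominent in the developing brain, was read at 186 and 195 CPM in vehicle and at 193 and 152 CPM in LY500307. LY500307 replicate 1 lay within the vehicle range and replicate 2 below it. The log2 fold change was -0.15 ± 0.13 (SE). TUBA1B, the ubiquitous alpha isotype, stood at 278 and 255 CPM in vehicle and 250 and 337 CPM in LY500307. Here the LY500307 samples lay on either side of the vehicle samples, and the log2 fold change was 0.14 ± 0.15. TUBA1C, another widely expressed isotype, was at 120 and 125 CPM in vehicle and 122 and 152 CPM in LY500307, with replicate 2 again the sample that stood apart (0.16 ± 0.12). TUBA4A was at 4.07 and 3.76 CPM in vehicle (122 and 107 reads) and at 3.40 and 3.22 CPM in LY500307 (118 and 104 reads). Neither LY500307 sample reached the lower vehicle sample, and the log2 fold change of -0.24 ± 0.23 was the largest in size of the 10. Its 95% interval ran from -0.78 to 0.29, so it held changes beyond the 0.5 limit, as did that of TUBE1 (-0.61 to 0.44). The intervals of TUBA1A (-0.44 to 0.15), TUBA1B (-0.21 to 0.48) and TUBA1C (-0.13 to 0.45) lay inside that limit.

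Among the beta isotypes, TUBB, the main isotype of dividing cells, was nearly level over the 4 samples, at 1220 and 1180 CPM in vehicle and 1180 and 1210 CPM in LY500307. Its 95% interval for the log2 fold change ran from -0.25 to 0.24. TUBB3 was at 58.3 and 56.7 CPM in vehicle and at 61.0 and 65.2 CPM in LY500307. Both LY500307 samples were above both vehicle samples, by a log2 fold change of 0.13 ± 0.11 (95% interval -0.11 to 0.38, adjusted p = 0.587, edgeR). TUBB6 was at 158 and 161 CPM in vehicle and 177 and 160 CPM in LY500307, groups that overlapped (0.08 ± 0.10). With a correction for GC content the log2 fold changes were 0.052 for TUBB3 and 0.0019 for TUBB6.

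TUBG1, the main gamma-tubulin gene, was at 78.9 and 82.9 CPM in vehicle and 86.1 and 63.3 CPM in LY500307. The LY500307 samples again lay on opposite sides of the vehicle pair, with a log2 fold change of -0.12 ± 0.15. TUBD1 was at 21.9 and 23.1 CPM in vehicle and 20.7 and 22.6 CPM in LY500307 (-0.05 ± 0.13). TUBE1 was at 7.01 and 5.00 CPM in vehicle and 5.82 and 5.51 CPM in LY500307, both within the vehicle range (-0.08 ± 0.23).

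**Figure D2:**
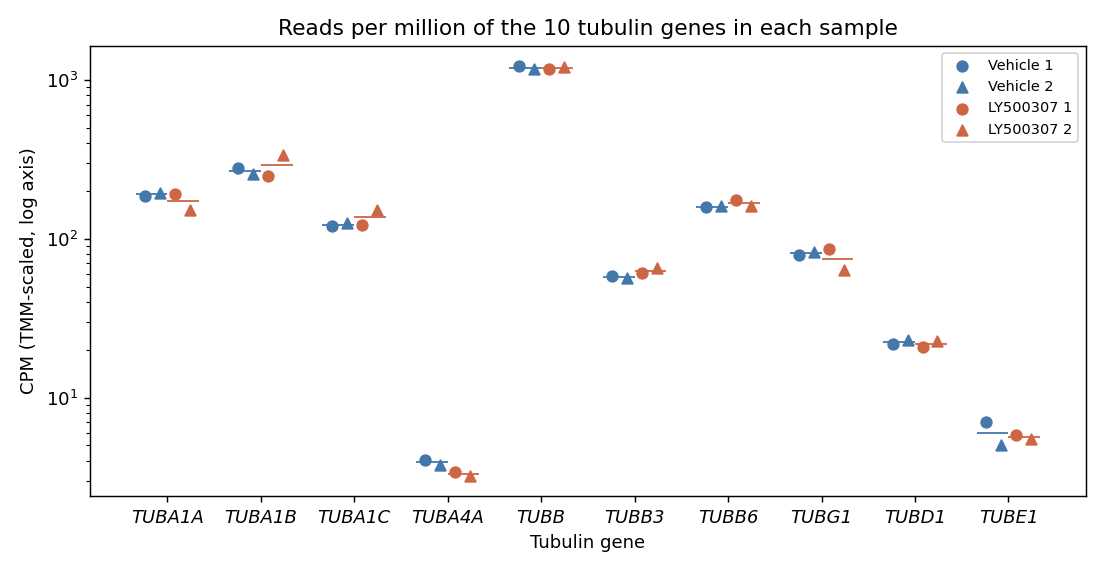
CPM (log axis) of the 10 tubulin genes in each of the 4 samples, with circles for replicate 1, triangles for replicate 2 and lines at the group means. LY500307 replicate 2 stands apart in TUBA1A (152 CPM), TUBA1B (337 CPM), TUBA1C (152 CPM) and TUBG1 (63.3 CPM).

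LY500307 replicate 2 alone set the direction of TUBA1A, TUBA1B, TUBA1C and TUBG1. Without it their log2 fold changes were 0.02, -0.09, -0.01 and 0.09, each of the opposite sign. Without LY500307 replicate 1 they were -0.32, 0.34, 0.31 and -0.35. In that fit the spread came from the vehicle pair alone. The lone LY500307 sample was assumed to vary like it, so only log2 fold changes are given for these genes. The ratio of TUBA1B to TUBA1A reads was 1.49 and 1.31 in vehicle, 1.30 in LY500307 replicate 1 and 2.22 in replicate 2. The same library was also lowest of the 4 for TUBB4A (28.4, 32.7, 33.8 and 19.7 CPM, vehicle first) and TUBG2 (20.9 CPM against 25.0 to 30.4 CPM). In this library 17.3% of tallied entries fell outside any counted gene, against 19 to 20.5% in the others. The part of the library in these values was not tested.

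**Figure D3:**
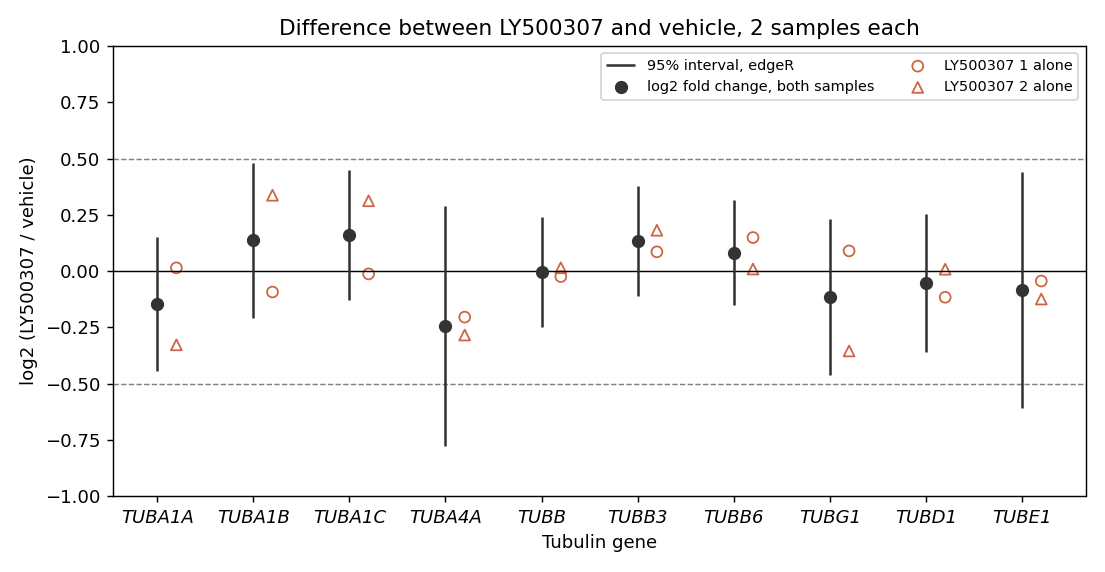
Log2 fold change of each tubulin gene, LY500307 over vehicle (black points, with 95% intervals from edgeR), with each LY500307 sample alone against the vehicle mean (open symbols) and dashed lines at the study limit of 0.5. All 10 points lie between -0.24 and 0.16, and the open symbols part most for TUBA1A, TUBA1B, TUBA1C and TUBG1.

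The question of isotype use was addressed with shares of length-scaled reads within each class. Of the reads of the 4 alpha members, TUBA1B made up 52.3 and 49.0% in vehicle and 49.0 and 58.6% in LY500307. TUBA1A made up 34.1 and 36.5% in vehicle and 36.7 and 25.7% in LY500307. The groups overlapped for both, and replicate 2 of LY500307 was the sample with the most TUBA1B and the least TUBA1A. TUBA1C held 13.4 ± 0.607% in vehicle and 14.5 ± 1.08% in LY500307, and its groups overlapped. TUBA4A held 0.591 ± 0.0232% in vehicle and 0.487 ± 0.0599% in LY500307 (SD, n = 2), without overlap. The size of the alpha shares depended on the scale. Per unshared position the vehicle means were 61.1% for TUBA1B, 30.5% for TUBA1A, 8.13% for TUBA1C and 0.264% for TUBA4A, and of raw counts TUBA1C held 21.0%. On all 3 scales the groups overlapped for TUBA1A, TUBA1B and TUBA1C and did not for TUBA4A. The scales divide the same reads by a constant for each gene, so they are not separate evidence. TUBA4A rested on 104 to 122 reads a sample. Its 95% Wilson intervals on raw counts overlapped between groups, at 0.538 to 0.785% in vehicle replicate 2 and 0.501 to 0.717% in LY500307 replicate 1.

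Of the reads of the 3 beta members, TUBB made up 80.4 and 79.8% in vehicle and 78.3 and 79.6% in LY500307. TUBB3 held 5.67% in both vehicle samples and 5.98 and 6.32% in LY500307, and TUBB6 held 13.9 and 14.6% against 15.7 and 14.1%. Thus TUBB was slightly lower and TUBB3 slightly higher in both LY500307 samples, and TUBB6 overlapped. With 2 against 2 samples the smallest p an exact two-sided permutation test allows is 0.333, so that test could not reach 0.05 for a share, and no other test of shares was run. For the shares of raw counts, before division by length, the widest 95% Wilson interval within a sample was ± 0.758 percentage points. Such intervals cover counting error only. For TUBB they were 84.0 to 84.8% in vehicle replicate 2 and 84.0 to 84.6% in LY500307 replicate 2. For TUBB3 they were 3.88 to 4.27% in vehicle replicate 2 and 4.13 to 4.49% in LY500307 replicate 1. For both genes the intervals of these samples overlapped, but those of the other LY500307 sample overlapped neither vehicle sample. TUBB in LY500307 replicate 1 was at 82.9 to 83.5%, below both vehicle intervals. TUBB3 in LY500307 replicate 2 was at 4.36 to 4.73%, above both vehicle intervals. When all beta genes were included, TUBB made up 53.9 ± 0.808% in vehicle and 53.4 ± 2.85% in LY500307, and the groups then overlapped. TUBB4B held 30.6 ± 0.447% of that pool in vehicle. TUBB3 held 3.82 ± 0.0348% in vehicle and 4.17 ± 0.337% in LY500307, still without overlap. TUBB6, at 9.46 and 9.75% in vehicle and 10.3 and 9.83% in LY500307, no longer overlapped in that pool.

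**Figure D4:**
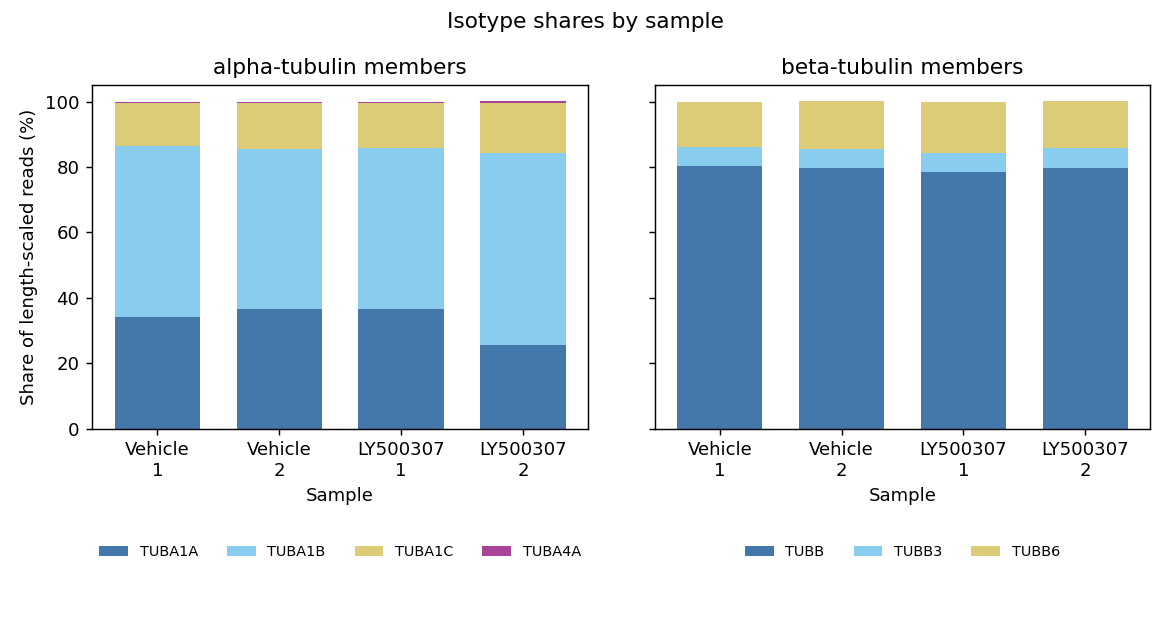
Share (%) of each isotype in the length-scaled reads of the alpha members (left) and of the beta members (right), one stacked bar per sample. TUBB makes up 78.3 to 80.4% of the beta bars, and the alpha bar of LY500307 replicate 2 holds 58.6% TUBA1B against 49.0 to 52.3% in the other samples.

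The summed level of the 10 genes was 2130 and 2080 CPM in vehicle and 2100 and 2170 CPM in LY500307. The alpha members summed to 0.542 and 0.545 times the beta members per length in vehicle and to 0.524 and 0.584 times in LY500307. Per unshared position this ratio was 0.979 and 0.973 in vehicle and 0.939 and 1.07 in LY500307, so its size depended on the scaling. The total and the ratio on both scales overlapped between groups. Since these were bulk samples, fewer cells of a type and less RNA per cell cannot be told apart.

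Other genes were taken from 7 lists, called the microtubule lists below. Of these, 1 list held mitotic markers and the others genes of the microtubule system. Of the 123 genes tested 1 (0.813%) met the study criteria, beside 4.62% of all genes. That gene was MZT2B, a small subunit of the gamma-tubulin ring complex. It was at 29.2 and 27.0 CPM in vehicle and 33.6 and 64.8 CPM in LY500307, with a log2 fold change of 0.81 ± 0.27 (unadjusted p = 0.0164, adjusted p = 0.422, edgeR). Replicate 2 carried most of this, since the log2 fold change without it was 0.26. It was the only 1 of 21 genes of nucleation and augmin to meet the criteria, and the median log2 fold change of that list was -0.16. The median of all genes tested was 0.00. Over the 123 genes 47 log2 fold changes were positive and 76 negative, and none had an adjusted p below 0.05. Of the 123, 51 (41.5%) were lower in both LY500307 samples than in both vehicle samples and 18 (14.6%) higher, beside 24.4% and 24.2% of all genes tested. The lower ones were 10 of 21 in nucleation and augmin, 18 of 40 microtubule-associated and severing proteins and 10 of 20 modification enzymes. In tubulin folding they were 5 of 22 (6 were higher), in tubulin mRNA autoregulation 1 of 3 and among the other tubulin genes 0 of 7. The mitotic markers held 7 lower ones of 10 genes, and 8 of the 76 negative values.

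The other tubulin genes (7 tested, 0 met the criteria) had a median of 0.00. TUBB4B, the second beta isotype by level, was at 421 and 424 CPM in vehicle and 457 and 388 CPM in LY500307. TUBB2A, whose transcript is 64.6% shared with other genes, was higher in both LY500307 samples (3.72 and 3.65 CPM) than in both vehicle samples (1.94 and 3.10 CPM), at a log2 fold change of 0.55 ± 0.29 and an adjusted p of 0.459 (edgeR). The remaining 5 tested, TUBA8, TUBB2B, TUBB4A, TUBB8 and TUBG2, had log2 fold changes of 0.20, 0.32, -0.19, -0.18 and -0.25, with SE of 0.16 to 0.47. The sign of all but TUBG2 depended on 1 LY500307 sample. Without LY500307 replicate 2 the values were 0.60, -0.07, 0.15, 0.19 and -0.11, and without replicate 1 -0.37, 0.64, -0.63, -0.70 and -0.41. The median of the 7 was then 0.15 and -0.37.

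Of the 22 genes of tubulin folding, the CCT chaperonin, prefoldin and tubulin cofactors, 0 met the criteria and the median was -0.03. The smallest p in that list was that of CCT8, a subunit of the CCT chaperonin (445 and 456 CPM in vehicle, 411 and 358 CPM in LY500307, log2 fold change -0.23 ± 0.11, or -0.13 without LY500307 replicate 2). Of the 20 tested enzymes that modify tubulin, 0 met the criteria, with a median of -0.14. AGTPBP1, which shortens glutamate chains on tubulin, had the smallest p there (66.3 and 64.3 CPM in vehicle, 53.3 and 52.6 CPM in LY500307, -0.30 ± 0.10, unadjusted p = 0.0191 and adjusted p = 0.422 by edgeR), with a log2 fold change short of 0.5. In the 3-gene autoregulation list 0 met the criteria, with a median of 0.05. TTC5, which reads the opening residues printed above, was at 14.8 and 14.8 CPM in vehicle and 16.2 and 20.7 CPM in LY500307 (0.32 ± 0.16, adjusted p = 0.453, edgeR). Without LY500307 replicate 2 the log2 fold change of TTC5 was 0.13, and without replicate 1 it was 0.48.

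Among 40 tested microtubule-associated and severing proteins 0 met the criteria, and the median was -0.07. NUSAP1, which binds spindle microtubules, had the smallest p of the list. It was at 129 and 133 CPM in vehicle and 109 and 84.5 CPM in LY500307 (-0.44 ± 0.13, unadjusted p = 0.00972, adjusted p = 0.422, edgeR), and the log2 fold change was -0.27 without LY500307 replicate 2. Mitotic markers were compared beside these values. None of the 10 met the criteria and their median was -0.16, but 7 of 10 were lower in both LY500307 samples than in both vehicle samples, where 24.4% of all genes tested were. TOP2A, a topoisomerase of dividing cells, was at 662 and 594 CPM in vehicle and 510 and 515 CPM in LY500307. The summed level of the 10 markers was 2360 and 2290 CPM in vehicle and 2050 and 1980 CPM in LY500307, and their part in the tubulin values was not tested.

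**Figure D5:**
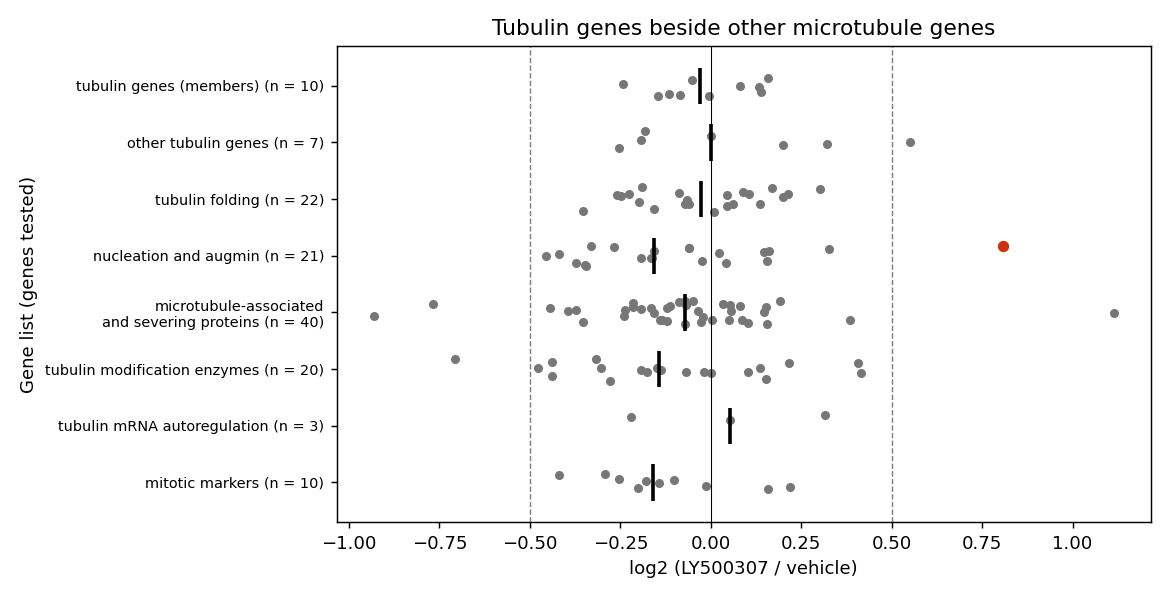
Log2 fold change, LY500307 over vehicle, of each tested gene in the tubulin set and 7 lists of microtubule genes and mitotic markers. Black bars mark the medians, dashed lines the study limit of 0.5 and red the genes that met the study criteria. The only red point is MZT2B (0.81), and the tubulin genes span -0.24 to 0.16.

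The list genes whose level over the 4 samples was most like the summed level of the 10 tubulin genes were VASH1, which removes the last tyrosine of alpha-tubulin, CCT4, a chaperonin subunit, and TBCC, a tubulin cofactor. Their root mean square differences from it were 0.016, 0.019 and 0.024 on the log2 scale over 4 samples, after centring, among 123 genes compared. The summed level was nearly flat (2130 and 2080 CPM in vehicle, 2100 and 2170 CPM in LY500307), and TUBB held 1180 to 1220 CPM of it. The measure thus picks genes that vary little, and the log2 fold changes of these 3 were 0.00, 0.04 and 0.06. Shared regulation was not tested.

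Since ERβ binds estrogen response elements, the promoters of the 10 genes (250 bases before to 50 after the start, RefSeq, GRCh38.p14) were searched on both strands for fixed letters, with no value in these samples behind the search. The full element, GGTCA, any 3 bases and then TGACC, was in 0 of the 10 and in 0.0659% of 27305 promoters. The half-site GGTCA, which lies within the full element, was found for TUBA1A, TUBA1C and TUBB (3 of 10) and in 37.7% of all promoters. The CCAAT box was found for TUBA1A, TUBA1C, TUBB and TUBG1 (35.7% of all), the GC box GGGCGG for TUBA1B, TUBA4A, TUBB and TUBG1 (44.6%), and the cell cycle letters TTTGAA for TUBA1C (15.4%). These matches describe letters in a window, and binding was not measured here.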

How the data were processed

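RNA was sequenced from 2 vehicle and 2 LY500307 samples. The deposited values were raw read counts per gene symbol, made by the authors with bcl2fastq, TopHat2 2.0.8b (hg19) and HTSeq from 50 nt single-end reads; the labels name a total RNA kit, and the study's methods a stranded mRNA kit. Tallies that name no gene (50 to 54.4% of tallied entries) were left out. Gene totals were 28841701 to 34943882. Counts were tested with edgeR 4.0.16 (R 4.3.3; TMM, filterByExpr, quasi-likelihood F test, Benjamini-Hochberg over 14473 genes), with the study criteria (p below 0.05, log2 fold change beyond 0.5). Intervals used each gene's fitted degrees of freedom. DESeq2 1.42.0, other scalings and filters, a GC correction, the replicate block and leaving out each sample were alternatives. The script was tested on simulated data.

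Shares and RPKM used GENCODE 44 (lifted to GRCh37) transcript lengths; symbols matched for 91.8% of 23228 genes, 2184 by an older symbol (TUBB4B and TUBB4A are listed as TUBB2C and TUBB4). Groups came from the sample titles. Members and lists were chosen with earlier results of these data known. Genes were named by rule: all 10 members, each tested other tubulin gene, up to 2 called genes per list and direction (otherwise the smallest p), and the 3 most alike; label-check, neuronal and promoter items were added. Coding sequence of the alpha isotypes is not reported here, and no protein sequence was used here.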

Additional observations from a re-analysis of the deposited data

How the results depend on the processing

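The count of tubulin genes meeting the study criteria was 0 under all 12 alternatives. Of 120 member log2 fold changes under them, 109 kept their direction and 11 changed sign, none of them called. With all 4 samples in the fit (80 values) the lowest adjusted p was 0.51 and 3 changed sign: TUBB was 0.035 with library totals alone, and TUBD1 0.0086 and TUBE1 0.097 with a GC correction. Leaving out 1 sample gave -0.32 to 0.017 for TUBA1A, -0.091 to 0.34 for TUBA1B, -0.010 to 0.31 for TUBA1C, -0.030 to 0.022 for TUBB, 0.088 to 0.18 for TUBB3, 0.012 to 0.15 for TUBB6, -0.35 to 0.092 for TUBG1, -0.11 to 0.011 for TUBD1 and -0.31 to 0.18 for TUBE1.

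Over all genes, leaving out 1 sample moved the count meeting the criteria from 669 to between 352 (without LY500307 replicate 2) and 1987 (without LY500307 replicate 1), and that of the microtubule lists from 1 to between 1 and 19. With the GC correction 4 list genes met them, 3 of these lower. Higher calls were 59.8% of all calls, 69.7% with library totals alone, 54.1% with the GC correction and 42.0% without LY500307 replicate 2. The values gave no sign that same-numbered samples were paired (correlation of deviations -0.07 over all genes tested, -0.23 for genes above the median level). With 2 samples a group this cannot show how they were prepared. With the replicate block 717 genes met the criteria and 1 had an adjusted p below 0.05. With the numbers crossed, a fit chosen after seeing the data, 781 met them and 381 had such an adjusted p. The share of TUBA1A differed by -4.07 percentage points, LY500307 minus vehicle, and by -9.57 to 1.44 with 1 sample left out; for TUBA1B the difference was 3.11, and -1.67 to 7.90. Depth limits TUBA4A and TUBE1, with 104 to 122 and 142 to 210 reads a library. The causes were not tested.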
